A study of Mus musculus with 4 samples.

Results

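Y RNAs, the RNA subunits of RNase P and RNase MRP, the telomerase RNA and 7SK RNA are small structural RNAs that work inside protein complexes and are not translated. The 6 genes followed here were Rny1, Rny3, Rpph1, Rmrp, Terc and Rn7sk, taken from a list of small structural RNAs and matched to the table by Ensembl gene ID. Rows were found for 5 of the 6, among 21971 gene rows and 4 rows for the expression constructs. No row carried the ID of Rn7sk (ENSMUSG00000065037), so 7SK RNA was not analysed here. The members were chosen by their being seen in total RNA libraries, with reads counted on them, so their presence and level are a description and not a finding.

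NMuMG is a mouse mammary epithelial cell line in which TGFβ induces an epithelial-to-mesenchymal transition (EMT). In 2 stable lines the cells overexpressed either a mutated human TRF1 protein (TRF1ΔN), a form of the telomere-binding protein TRF1, or that protein joined to the Vp16 transcription activation domain (Vp16-TRF1ΔN), which was used to raise TERRA-like RNA from telomeres. Each line was sampled at 0 h, labelled as the control, and at 24 h of TGFβ at 5 ng/ml, and the study asked how TERRA overexpression alters the EMT signature. Each of the 4 groups held 1 library of 35423556 to 46001039 counts. All 4 libraries thus carry a TRF1ΔN protein, and neither parental cells nor a 24 h library without TGFβ were analysed here. The construct rows took 0.0372% of counts at 0 h and 0.0582% at 24 h in TRF1ΔN. In Vp16-TRF1ΔN they took 0.0136% and 0.0129%. The part of this difference in the comparisons of the lines was not tested. The labels do not say whether a line is a clone or a pool, and time and TGFβ cannot be told apart. The epithelial markers Cdh1, Krt8, Krt18 and Krt19 were present at 366, 1682, 2771 and 1565 CPM, that is, counts relative to the scaled library size, in the TRF1ΔN library at 0 h, whereas Epcam had 0.378 CPM there and at most 0.261 CPM elsewhere. Immune, endothelial, fibroblast and adipocyte lists each had no more than 1 of 3 members with a mean of 1 CPM or above.

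Y RNAs bind the Ro60 and La proteins and are known for roles in RNA quality control and DNA replication. RNase P removes the 5′ leader of tRNA precursors, its relative RNase MRP processes ribosomal RNA precursors, and both share most of their proteins. Telomerase copies the template inside its RNA, Terc, onto chromosome ends, and 7SK RNA holds the elongation kinase P-TEFb in an inactive complex. RNA polymerase III makes all of these RNAs in the mouse except Terc, which RNA polymerase II makes.

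The Y RNA genes are neighbours, and their sequences are shown because the members differed in their response. In the GENCODE M21 annotation of GRCm38, Rny1 (ENSMUSG00000065701) lies at chr6:47788069-47788180 on the minus strand and Rny3 (ENSMUSG00000064945) at chr6:47781624-47781725 on the plus strand. The transcripts are 112 nt and 102 nt long, and were identical at 81 of 112 aligned columns (72.3%). Capitals mark the 3 runs of 8 or more bases that both RNAs share, of which the longest has 12 bases. Both end in 4 T residues, the RNA polymerase III stop signal, whereas Rpph1, Rmrp and Terc do not.
Rny1: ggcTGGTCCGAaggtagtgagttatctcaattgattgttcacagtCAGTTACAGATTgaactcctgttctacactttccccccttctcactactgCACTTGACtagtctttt
Rny3: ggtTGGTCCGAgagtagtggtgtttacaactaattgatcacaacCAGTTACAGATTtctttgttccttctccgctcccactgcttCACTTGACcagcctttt

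The RNAs of RNase P and RNase MRP are longer and richer in GC, and they were the abundant members. Rpph1 (ENSMUSG00000092837) lies at chr14:50807449-50807767 on the minus strand, is 319 nt long with 67.1% GC and overlaps 284 nt of Ccnb1ip1 on the same strand. Rmrp (ENSMUSG00000088088) lies at chr4:43492788-43493058 on the minus strand, is 271 nt long with 64.2% GC and overlaps 159 nt of Ccdc107 on the other strand. A longer annotation of Rmrp with its own ID (ENSMUSG00000115420) had no row. Rpph1 and Rmrp were identical at 176 of 339 aligned columns (51.9%). The pair shares 3 runs of 8 or more bases, marked in capitals, which do not stand in the same order in both RNAs, and the longest has 9 bases. Rpph1 is shown from base 1 to base 300, so its copy of TCCCCCGC, which lies beyond, is not seen.
Rpph1: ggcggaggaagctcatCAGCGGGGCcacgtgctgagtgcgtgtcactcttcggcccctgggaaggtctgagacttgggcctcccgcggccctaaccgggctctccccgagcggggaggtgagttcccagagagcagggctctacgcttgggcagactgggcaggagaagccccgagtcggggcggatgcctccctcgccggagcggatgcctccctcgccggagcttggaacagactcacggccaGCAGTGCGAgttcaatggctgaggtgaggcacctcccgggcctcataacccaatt
Rmrp: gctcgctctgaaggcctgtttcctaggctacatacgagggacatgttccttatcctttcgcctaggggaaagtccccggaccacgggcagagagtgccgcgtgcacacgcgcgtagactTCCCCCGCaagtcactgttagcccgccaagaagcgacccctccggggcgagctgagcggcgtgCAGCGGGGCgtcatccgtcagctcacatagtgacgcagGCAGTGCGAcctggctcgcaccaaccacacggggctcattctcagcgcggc

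Terc (ENSMUSG00000064796) lies at chr3:96414437-96414859 on the minus strand, is 423 nt long and has 67.1% GC. The first 150 bases are shown for the template, with the letters CTAACCCT in capitals at bases 29 to 36, which pair with the telomeric repeat. These letters, read as given, occur in 132 of 30340 annotated transcripts of 50 to 500 nt (0.435%), and in 205 (0.676%) when either strand is searched. Terc was the 1 member that held them.
Terc: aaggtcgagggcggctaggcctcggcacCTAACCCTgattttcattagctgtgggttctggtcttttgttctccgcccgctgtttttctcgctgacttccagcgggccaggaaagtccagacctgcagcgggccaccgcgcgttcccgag

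The 5 RNAs covered a wide range of levels. Scaled to gene length, the mean over the 4 libraries was 4403 CPM per kb for Rpph1, 3393 for Rmrp, 218 for Rny3, 65.99 for Rny1 and 1.40 for Terc. The order was the same in each library, although in the TRF1ΔN library at 0 h the counts per length of Rpph1 and Rmrp differed by less than counting error (ratio 1.01, 95% counting interval 0.992 to 1.02). By mean CPM, Rpph1 ranked 37 and Rmrp 64 among all genes, against 7177 for Rny3, 9521 for Rny1 and 12469 for Terc. Together the members took 0.194%, 0.182%, 0.302% and 0.265% of the counts in the order TRF1ΔN at 0 h, TRF1ΔN at 24 h, Vp16-TRF1ΔN at 0 h and Vp16-TRF1ΔN at 24 h, an order kept below. In bulk RNA, fewer cells with an RNA and less of it per cell cannot be told apart. How well the library preparation keeps RNAs of this length was not tested.

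**Figure D1:**
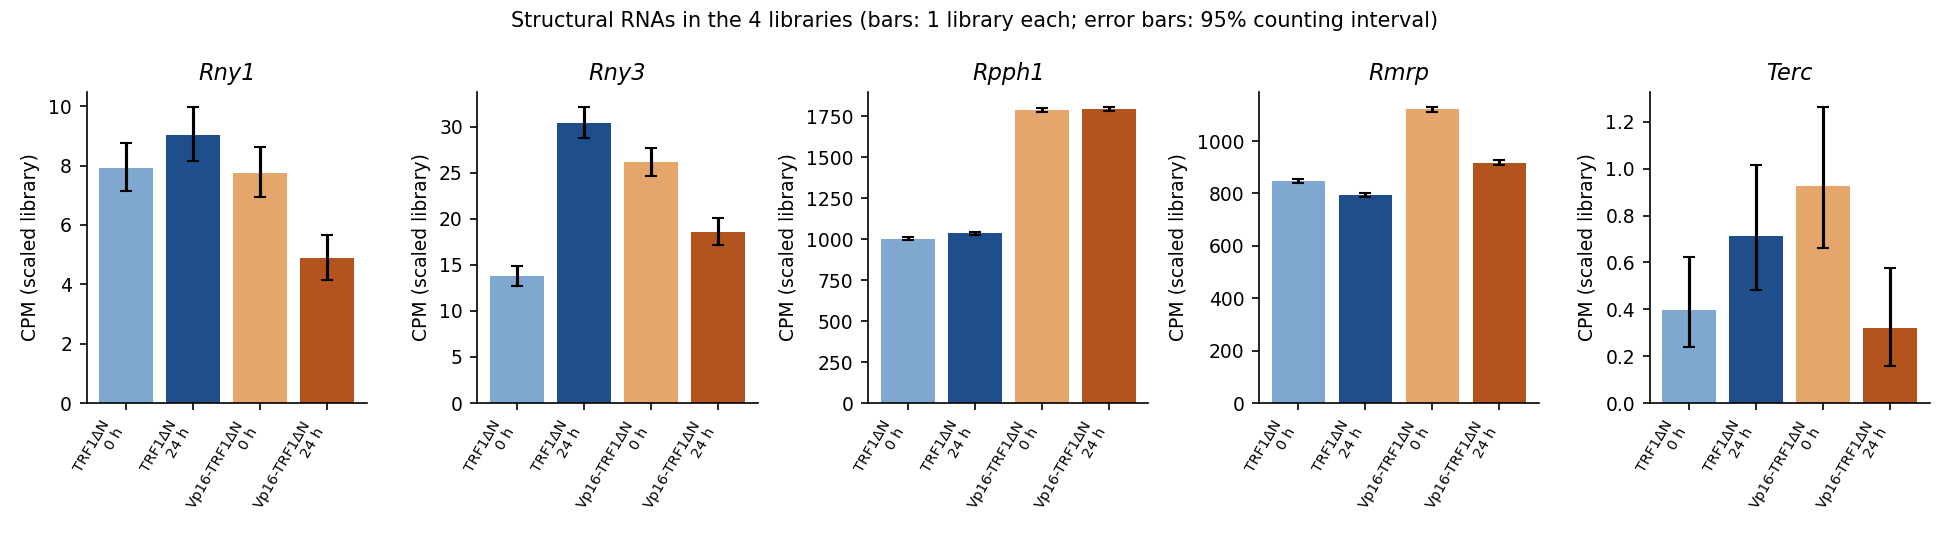
CPM of the 5 RNAs in each library (bars, 1 library each; linear axes from 0, a separate scale for each RNA), with 95% counting intervals as error bars. Rpph1 sits at 1002.3 and 1035.5 CPM in the TRF1ΔN libraries and at 1787.5 and 1793.5 CPM in the Vp16-TRF1ΔN libraries, whereas Rny3 is highest in TRF1ΔN at 24 h (30.4 CPM) and lowest in TRF1ΔN at 0 h (13.7 CPM).

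TGFβ gave no called change in any member over both lines. The average change was tested with edgeR's quasi-likelihood method in an additive model of line and TGFβ over the 4 libraries, and a gene was called at a Benjamini-Hochberg adjusted p under 0.05. In this test 0 of the 5 members were called, against 48.5% of the 14305 genes tested. The log2 change at 24 h was 0.03 ± 0.07 (SE) for Rpph1 (edgeR adjusted p = 0.769) and -0.19 ± 0.08 for Rmrp (adjusted p = 0.114). For the Y RNAs it was -0.22 ± 0.24 for Rny1 (edgeR adjusted p = 0.496) and 0.33 ± 0.41 for Rny3 (adjusted p = 0.543), and for Terc -0.28 ± 0.62 (adjusted p = 0.740). The standard errors were wider for the Y RNAs and Terc, whose ratios within the lines, given next, lay in opposite directions. These ratios have no test, since each condition held 1 library, and their 95% intervals cover counting error only.

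Rny3, the Y RNA with the higher level, had 655 counts at 0 h and 1281 at 24 h in TRF1ΔN, and 1127 and 636 counts in Vp16-TRF1ΔN. It was thus higher with TGFβ in one line and lower in the other. As CPM the values were 13.7, 30.4, 26.1 and 18.6. The TGFβ ratio was 2.21-fold higher in TRF1ΔN (2.01 to 2.44) and 1.41-fold lower in Vp16-TRF1ΔN (1.28 to 1.56). Rny3 was the 1 member counted at 2-fold or more (mean of at least 1 CPM, interval excluding no difference) in TRF1ΔN, where 8.4% of 11777 genes were counted upwards and 10.9% downwards. In Vp16-TRF1ΔN 0 of the 5 members were counted, against 6.92% of genes upwards and 9.09% downwards. At 1.5-fold, Rny3 was again the 1 member counted in TRF1ΔN (16% of genes upwards), and Rny1 was the 1 counted in Vp16-TRF1ΔN (16.2% of genes downwards).

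Rny1, the neighbouring Y RNA, had 377, 380, 334 and 167 counts, or 7.91, 9.03, 7.75 and 4.87 CPM. The Vp16-TRF1ΔN library at 24 h lay below the others, which lay close together. Its TGFβ ratio was 1.14 in TRF1ΔN, with an interval that includes no difference (0.987 to 1.32), and 1.59-fold lower in Vp16-TRF1ΔN (1.32 to 1.93). Within each library Rny3 exceeded Rny1 per length, by 1.91-fold (1.68 to 2.17) in TRF1ΔN at 0 h and by 3.701-fold, 3.71-fold and 4.18-fold in the others. The pair therefore stood closest in the TRF1ΔN library at 0 h, and the intervals of the other 3 libraries overlap. Rpl31-ps7, the annotated pseudogene between them, had 0, 0, 1 and 1 counts.

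Terc was at the limit of what these libraries can resolve, with 19, 30, 40 and 11 counts, or 0.399, 0.713, 0.928 and 0.321 CPM. A count of 3 equals 0.0630 to 0.0875 CPM here. TGFβ ratios were 1.79 in TRF1ΔN (0.973 to 3.36) and 2.89-fold lower in Vp16-TRF1ΔN (1.46 to 6.25). Its mean lay under 1 CPM, so its ratios were not counted among the 2-fold members. Vp16-TRF1ΔN at 0 h was the highest of its libraries and Vp16-TRF1ΔN at 24 h the lowest. Ranked by CPM, neighbouring libraries had overlapping counting intervals, while the highest and the lowest did not.

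Rmrp had 40341, 33413, 48309 and 31428 counts, or 847, 794, 1120.8 and 917 CPM, and its TGFβ ratios were 1.07-fold lower in TRF1ΔN (1.05 to 1.08) and 1.22-fold lower in Vp16-TRF1ΔN (1.205 to 1.24). Rpph1 had 47749, 43589, 77049 and 61462 counts, or 1002.3, 1035.5, 1787.5 and 1793.5 CPM, and its TGFβ ratios were 1.03 (1.02 to 1.05) and 1.003 (0.993 to 1.01). Rpph1 thus stayed within 1.05-fold of its 0 h level in either line at 24 h by these intervals.

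**Figure D2:**
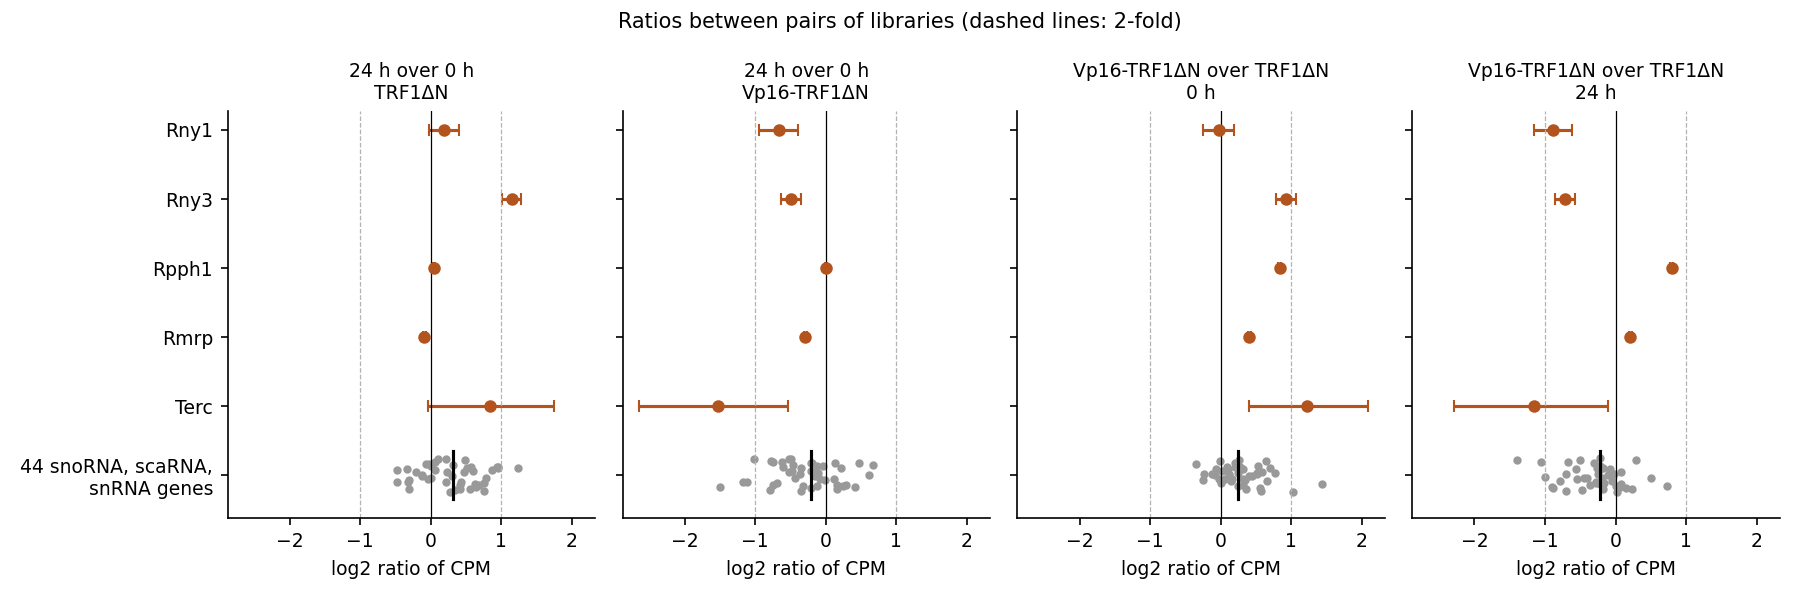
Log2 ratios of CPM between pairs of libraries for the 5 RNAs (points, with 95% counting intervals) and for 44 small nucleolar, small Cajal body and small nuclear RNA genes at a mean of 1 CPM or more (grey points; black bar, median; log2 ratios with a prior count of 2). Rny1, Rny3 and Terc lie right of 0 in the TRF1ΔN line and left of 0 in the Vp16-TRF1ΔN line, while Rpph1 lies near 0 in both and right of 0 in both comparisons of the lines.

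The difference between the TGFβ responses of the lines, in log2 with a prior count of 2, was -1.64 for Rny3 (95% counting interval -1.83 to -1.44), -0.85 for Rny1 (-1.19 to -0.52) and -2.17 for Terc (-3.42 to -0.92). It was -0.20 for Rmrp and -0.04 for Rpph1. Of all genes at 1 CPM or more, 0.866% had a difference at least 2-fold in this direction, and Rny3 was the 1 member among them. Ratios that lay in opposite directions in the lines, with both intervals excluding no difference, were found for 187 of 11777 genes (1.59%), of which 91 (0.773%) were higher with TGFβ in TRF1ΔN and lower in Vp16-TRF1ΔN, Rny3 among them. The difference of responses has no test, since it uses the residual degree of freedom of the design.

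Most other small RNAs had ratios of the same sign. Among 44 genes for small nucleolar, small Cajal body and small nuclear RNAs with a mean of at least 1 CPM, 32 had a log2 ratio above 0 under TGFβ in TRF1ΔN (median 0.31) and 33 had one below 0 in Vp16-TRF1ΔN (median -0.21). The medians over all 11777 genes were -0.02 and -0.01. The difference of responses lay below 0 for 41 of the 44, with a median of -0.56, and 2 of them lay below Rny3. Relative to the median of these small RNAs, Rny3 stood at 0.83 in TRF1ΔN and -0.29 in Vp16-TRF1ΔN, a difference of -1.08, while Rny1 stood at -0.12 and -0.46. Rny1 thus changed sign in TRF1ΔN on this scale and Rny3 did not. The share of counts on nuclear-encoded rRNA genes was 0.193%, 0.263%, 0.184% and 0.411%, and that on the mitochondrial rRNA genes 9.75%, 12.8%, 10.9% and 15.1%, both highest in Vp16-TRF1ΔN at 24 h, where Rny1 and Terc were lowest. The part of small RNA recovery and of rRNA depletion in these differences was not tested.

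**Figure D3:**
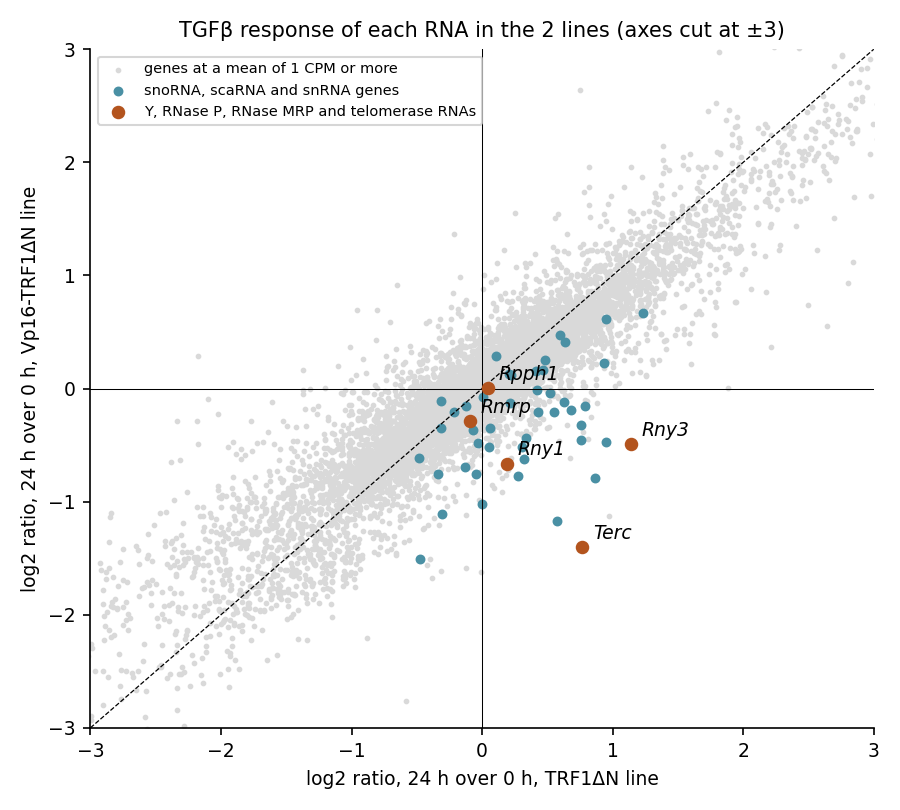
Log2 ratio of CPM at 24 h over 0 h in the TRF1ΔN line (horizontal axis) against the Vp16-TRF1ΔN line (vertical axis), both with a prior count of 2, for genes at a mean of 1 CPM or more (grey), 44 small nucleolar, small Cajal body and small nuclear RNAs (blue) and the 5 RNAs (orange); the dashed line marks equal responses. Of the 44 blue points 41 lie below the dashed line, and Rny3 lies at 1.14 and -0.49.

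Between the lines, Rpph1 was higher in Vp16-TRF1ΔN at both times. The ratio of Vp16-TRF1ΔN over TRF1ΔN was 1.78 at 0 h (1.76 to 1.804) and 1.73 at 24 h (1.71 to 1.75), so the libraries of the lines did not overlap. Averaged over both times, the line difference was 0.81 ± 0.07 in log2, or 1.76-fold. This did not pass the adjusted threshold in edgeR's quasi-likelihood test (adjusted p = 0.232), in which 0% of 14305 genes were called for the line, with 1779 at an unadjusted p under 0.05. By its p-value Rpph1 ranked 9 of all genes. DESeq2's Wald test on the same design called 46 genes (0.322%), Rpph1 among them (adjusted p = 1.83e-09), and edgeR without a filter on low counts called 109 of 21971 (0.496%), again with Rpph1 (adjusted p = 0.000309).

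Rpph1 stood out among abundant RNAs at 0 h, and less so at 24 h. Of 174 genes at a mean of 500 CPM or more it had the highest ratio of Vp16-TRF1ΔN over TRF1ΔN at 0 h, and it ranked 5 at 24 h; the median log2 ratios of these genes were -0.02 and -0.03. Of 2225 genes at 100 CPM or more it ranked 1 and 53. A larger absolute log2 ratio than that of Rpph1 was found for 1.15% of 11777 genes at 0 h and for 5.91% at 24 h. The 44 small RNAs named above had median log2 ratios between the lines of 0.25 at 0 h and -0.23 at 24 h, whereas Rpph1 had 0.83 and 0.79. At 24 h none of the 44 exceeded Rpph1, and at 0 h 2 did.

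Rmrp was higher in Vp16-TRF1ΔN as well, by less. Its ratio between the lines was 1.32 at 0 h (1.31 to 1.34) and 1.16 at 24 h (1.14 to 1.17), and its average line difference was 0.31 ± 0.08 in log2 (edgeR adjusted p = 0.399). A larger absolute log2 ratio than that of Rmrp was found for 5.81% of 11777 genes at 0 h and for 41.8% at 24 h. Rpph1 over Rmrp per length was 1.01, 1.11, 1.35 (1.34 to 1.37) and 1.66 (1.64 to 1.68) in the 4 libraries. The RNA of RNase P thus stood furthest above that of RNase MRP in the Vp16-TRF1ΔN library at 24 h.

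The line ratios of Rny3 and Terc lay on opposite sides of 1 at the 2 times, while that of Rny1 did not. Rny3 was 1.90-fold higher in Vp16-TRF1ΔN at 0 h (1.73 to 2.097) and 1.64-fold lower at 24 h (1.49 to 1.81). Rny1 had a ratio of 0.979 at 0 h (0.843 to 1.14) and was 1.85-fold lower at 24 h (1.54 to 2.24). Terc was 2.33-fold higher at 0 h (1.32 to 4.25) and 2.22-fold lower at 24 h (1.08 to 4.91). Their average line differences in log2 were 0.11 ± 0.41, -0.44 ± 0.24 and 0.18 ± 0.62 (edgeR adjusted p = 0.917, 0.464 and 0.905). No member was counted at 2-fold between the lines, against 0.178% of genes upwards and 0.416% downwards at 0 h, and 2.11% and 1.18% at 24 h. At 1.5-fold, Rny3 and Rpph1 were counted upwards at 0 h, as were 1.12% of genes. At 24 h Rpph1 was counted upwards (5.82% of genes), and Rny1 and Rny3 downwards (4.34%). These pairs use the same 4 libraries as the TGFβ ratios and add no independent measurement.

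**Figure D4:**
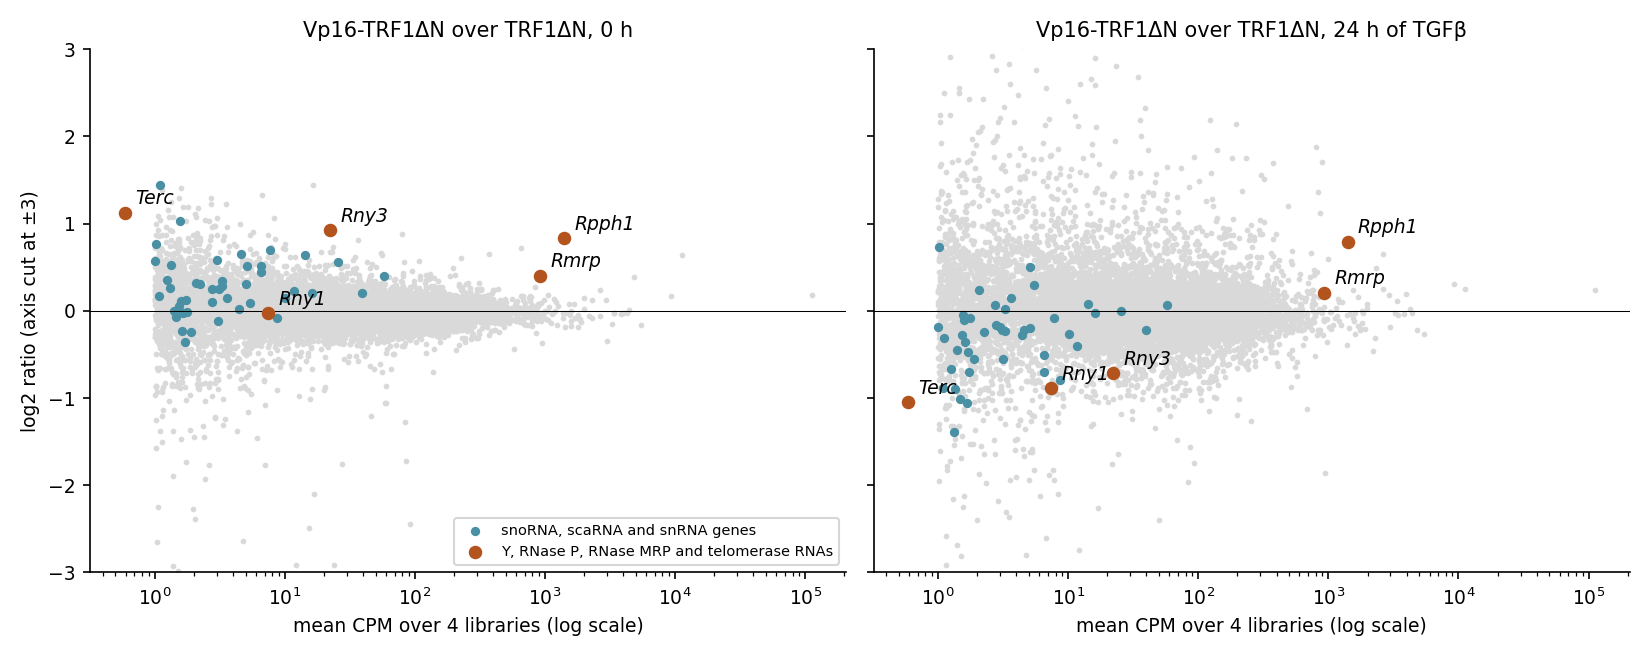
Log2 ratio of Vp16-TRF1ΔN over TRF1ΔN (prior count of 2) against mean CPM over the 4 libraries (log scale) at 0 h (left) and 24 h (right), for genes at 1 CPM or more (grey), 44 small nucleolar, small Cajal body and small nuclear RNAs (blue) and the 5 RNAs (orange). Rpph1 lies at 0.83 and 0.79 at a level where most genes lie near 0, and Rny3 moves from 0.92 to -0.71.

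Copies of similar sequence and overlapping genes could share reads with some members. Copies were sought among annotated transcripts at 80% identity or more over at least 50% of the length, a rule set after the files were seen. For Rpph1, the copies Rprl3 (86.0% identical over 257 nt) and Rprl2 (85.6%) had 82, 125, 158 and 131 counts and 57, 63, 92 and 120 counts. They were also higher in Vp16-TRF1ΔN at 0 h, by 2.13-fold (1.62 to 2.82) for Rprl3 and 1.78-fold (1.27 to 2.53) for Rprl2. At 24 h the ratio was 1.29 for Rprl3, with an interval of 0.9998 to 1.66, and 2.34 for Rprl2 (1.71 to 3.23). Their counts are under 1% of those of Rpph1, and whether some came from reads of Rpph1 was not tested. The overlapping Ccnb1ip1 had 10, 4, 3 and 2 counts.

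Genes beside the members were read in the same fit. Parp2, a poly(ADP-ribose) polymerase gene 73 nt from Rpph1 on the other strand, had 26.2, 26.8, 25.2 and 23.7 CPM and an average line difference of -0.12 ± 0.08 in log2 (edgeR adjusted p = 0.548). Ccdc107, which overlaps Rmrp on the opposite strand, had 18.6, 16.6, 20.3 and 15.8 CPM, and the strand setting of the counting is not given in the sources used here. Arhgef39, 3083 nt from Rmrp, fell with TGFβ by 1.53 ± 0.17 on the log2 scale (edgeR adjusted p = 0.00414). Pdia4, a protein disulfide isomerase gene 7960 nt from Rny1, rose by 0.29 ± 0.07 (edgeR adjusted p = 0.0270). Of the copies of 7SK RNA, 10 of 34 annotated ones had rows, with 97, 112, 162 and 147 counts in sum, of which Gm24146 (97.5% identical) had 66, 79, 98 and 97; reads of 7SK RNA itself cannot be told apart from theirs. Rny3 and Rmrp had no copy by this rule. Of 13 annotated copies of Rny1, 1 had a row, with at most 2 counts in a library. Neither of the 2 copies of Terc had a row, so reads on them were not counted here.

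The genes whose pattern over the 4 libraries was nearest were found among 9766 genes at 5 CPM or more by the root mean square difference of centred log2 CPM. For Rmrp they were Mmp15 (0.0222), Rora (0.0340) and Tmem218 (0.0545). For Rpph1 they were Spon2 (0.107), Aox1 (0.116) and Tpcn2 (0.140), and for Rny1 Tm4sf1 (0.0975), Col15a1 (0.117) and Rps25 (0.121). Among the genes kept, those nearest to Rny3 were further away, with Kmt5c at 0.258, Tmcc3 at 0.273 and Cyth1 at 0.275. Predicted genes (Gm and Rik names) were left out of the search, and many small RNA genes carry such names. Genes nearer to Rny3 could therefore be among those left out. The small nucleolar RNA gene Gm25117 had TGFβ log2 ratios of 0.76 in TRF1ΔN and -0.46 in Vp16-TRF1ΔN, beside 1.14 and -0.49 for Rny3. With 4 libraries such likeness is a description of these samples.

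The mRNAs of proteins that work with these RNAs were called for TGFβ about as often as other genes. Of 72 tested genes in 5 lists, 32 were called in edgeR's test (44.4%, beside 48.5% of all genes), of which 10 rose and 22 fell, beside 23.1% of all genes that rose and 25.4% that fell. The median log2 change over all genes was -0.01. None of them was called for the line. DESeq2's Wald test called 7 of them as risen and 12 as fallen, beside 16.6% and 18.4% of all genes.

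Among the proteins of RNase P and RNase MRP, 0 rose and 6 of 11 tested fell, with a median log2 change of -0.38. Of all genes tested, 23.1% rose and 25.4% fell. DESeq2's Wald test did not call Pop7 and Rpp25l of these 6 (adjusted p = 0.293 and 0.161). Pop5, a subunit of both enzymes, went from 40.3 to 17.5 CPM in TRF1ΔN and from 38.7 to 16.7 CPM in Vp16-TRF1ΔN, and its average change was -1.21 ± 0.08 (edgeR adjusted p = 0.00135). Pop1, the largest protein subunit, had -0.59 ± 0.07 (edgeR adjusted p = 0.00464). Pop4, also a subunit of both, had 0.14 ± 0.08 and was not called (edgeR adjusted p = 0.193), and Rpp25 was too low to be tested. The RNAs Rpph1 and Rmrp had changes of 0.03 and -0.19 in the same fit, beside the list median of -0.38. Single protein genes ran from -1.21 for Pop5 to 0.14 for Pop4. For the line, all 11 protein genes had log2 values below 0 (-0.27 to -0.01) and none was called. Values below 0 were also the more frequent in the other partner lists, with 6 of 25 RNA polymerase III genes, 4 of 17 telomerase genes, 4 of 11 7SK and P-TEFb genes and 3 of 8 Y RNA protein genes above 0, beside 6948 of all 14305 genes.

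Among telomerase proteins and factors that mature Terc, 1 rose and 8 of 17 fell (median -0.39), beside 23.1% and 25.4% of all genes. Of these 8, DESeq2's Wald test did not call Naf1, Toe1, Ruvbl1 and Wrap53 (adjusted p = 0.0678, 0.0504, 0.0947 and 0.111). Dkc1, the pseudouridine synthase of the telomerase complex and of box H/ACA RNAs, had 126, 77.9, 105.6 and 62.4 CPM, and fell by 0.73 ± 0.06 on the log2 scale (edgeR adjusted p = 0.00248). Zcchc8, of the complex that targets RNAs to the nuclear exosome, fell by 0.57 ± 0.08 (edgeR adjusted p = 0.00610). Tep1, a telomerase-associated and vault protein, rose by 0.77 ± 0.07 (edgeR adjusted p = 0.00299). Tert, the reverse transcriptase, had 1.87, 1.52, 1.88 and 1.25 CPM, and its change of -0.43 ± 0.22 was not called (edgeR adjusted p = 0.179). Both the RNA and the catalytic protein of telomerase were thus among the low RNAs of these cells.

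Among proteins that bind Y RNAs, 1 rose and 2 of 8 fell (median -0.14), beside 23.1% and 25.4% of all genes. Trove2, the symbol of Ro60 in this annotation, had 90.7, 118.9, 90.7 and 137.8 CPM and rose by 0.50 ± 0.08 (edgeR adjusted p = 0.00948). Ncl (nucleolin) and Ptbp1, a splicing regulator, fell by 0.50 ± 0.06 and 0.42 ± 0.07 (edgeR adjusted p = 0.00523 and 0.0122). Ssb, which encodes La, had -0.20 ± 0.06 and was not called (edgeR adjusted p = 0.0609).

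In the list of 7SK complex and P-TEFb genes, 4 rose and 1 of 11 fell (median 0.10), beside 23.1% and 25.4% of all genes. The genes that rose most were those of elongation factors that work with P-TEFb, Aff1 by 0.72 ± 0.14 and Aff4 by 0.43 ± 0.08 (edgeR adjusted p = 0.0160 and 0.0151). Cdk9, the kinase, rose by 0.35 ± 0.09 (edgeR adjusted p = 0.0290), and Hexim1, which inhibits it when bound to 7SK RNA, fell by 0.28 ± 0.07 (adjusted p = 0.0343). Under DESeq2 neither was called (adjusted p = 0.100 and 0.168). Larp7 and Mepce, which bind and cap 7SK RNA, had -0.25 and -0.08 (edgeR adjusted p = 0.0607 and 0.424).

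Among 25 genes of the RNA polymerase III machinery, 4 rose, 5 fell and 16 were not called (median 0.10). Of all genes, 23.1% rose and 25.4% fell. Polr3d, which rose, and Crcp, Snapc4 and Snapc5, which fell, were not called under DESeq2. Snapc1 and Snapc3, subunits of the factor that binds the promoters of small RNA genes of this type, rose by 0.75 ± 0.16 and 0.52 ± 0.08 (edgeR adjusted p = 0.0193 and 0.00915). Polr3g, one of the alternative forms of a polymerase III subunit, fell by 0.70 ± 0.08 and Polr1d, a subunit shared with RNA polymerase I, by 0.595 ± 0.07 (edgeR adjusted p = 0.00471 and 0.00431). Maf1, the repressor of RNA polymerase III, rose by 0.23 ± 0.06 (edgeR adjusted p = 0.0423), and not under DESeq2 (adjusted p = 0.191). Of 28 other small structural RNAs listed, 9 had rows, none reached a mean of 1 CPM, and of the 3 tested none was called.

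**Figure D5:**
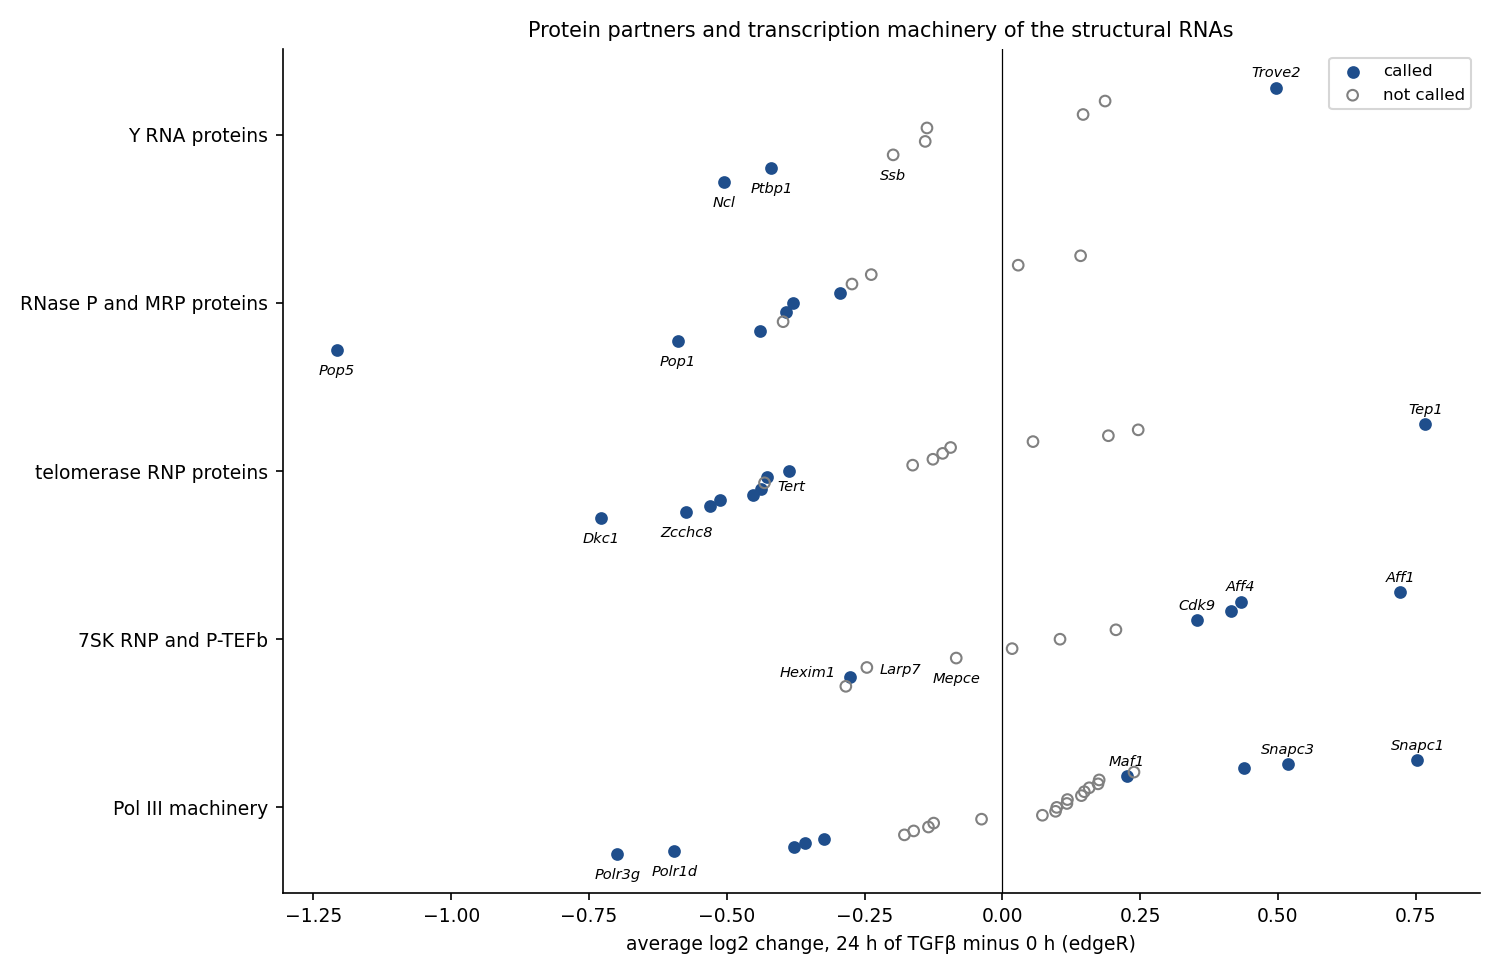
Average log2 change from 0 h to 24 h of TGFβ (horizontal axis, edgeR additive fit over the 4 libraries) for the 72 tested genes of the 5 partner lists, 1 row of points per list, spread vertically by rank. Filled points passed an adjusted p under 0.05, of which 10 lie right of 0 and 22 left of 0; open points did not.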

How the data were processed

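Total RNA from 4 libraries was sequenced after depletion of ribosomal RNA, per the labels' protocols. The submitters' processing notes name FastQC for read quality, STAR for alignment, mm10 as the build, HTSeq for counting and DESeq2 for normalization. Tool versions, the gene annotation and the strand setting of the counting are not stated there. The authors deposited raw counts per gene, which were used for all values, and log2 values, which equal log2 of the count over a size factor, plus 1, and were only checked against the counts. The 4 construct rows stayed out of library sizes and tests.

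Counts were scaled with TMM factors and tested in edgeR 4.0.16 (R 4.3.3), in an additive fit of line and TGFβ with 1 residual degree of freedom (prior degrees of freedom 3.39) over 14305 genes passing filterByExpr. The SE is the log2 change over the square root of F. Tests were two-sided with Benjamini-Hochberg adjustment. The script was tested on simulated data. With 1 library per group, the residual of this fit is the departure from equal TGFβ responses in the lines, combined with information from other genes. The p-values set each change against that residual. They do not measure a spread between replicate cultures, which the labels do not describe. Pairs of libraries have no test: ratios carry exact conditional (Clopper-Pearson) 95% intervals, the difference of responses one from Poisson variances, all for counting error only. Ratios were counted at 2-fold or more, a mean of 1 CPM or more and an interval excluding no difference.

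Sequences and positions are from GENCODE M21 (GRCm38, the build mm10 names), and copies were sought with blastn 2.17.0. The members, lists and tests were chosen with earlier results of these data known. All members were named; from each partner list the 2 highest and 2 lowest called TGFβ changes, with Trove2 (Ro60), Ssb, Tert, Dkc1, Larp7, Mepce, Hexim1, Cdk9, Pop1 and Maf1 whatever their values; the nearest gene on each side; and for members at 5 CPM or more the 3 genes of nearest pattern, predicted genes left out. Pop4, Gm25117, the copies and the overlapping genes were named after their values were seen. So were the further partner genes that edgeR called and DESeq2 did not. Alternatives changed the scaling, filter, library size, prior count, fold threshold and test (DESeq2 1.42.0); the scale relative to other small RNAs was added after seeing the data.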

Additional observations from a re-analysis of the deposited data

Results flagged for a closer look

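For 3 members the TGFβ ratio pointed in opposite directions in the lines, higher at 24 h in TRF1ΔN and lower in Vp16-TRF1ΔN. The difference of responses, Vp16-TRF1ΔN minus TRF1ΔN, was -0.85 for Rny1, -1.64 for Rny3 and -2.17 for Terc in log2. Each line held 1 library per time, so the difference was not tested. The interval of the TRF1ΔN ratio includes no difference for Rny1 and Terc, and Terc rests on 11 to 40 counts. The median difference of the 44 other small RNAs was -0.56.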

How the results depend on the processing

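The average changes kept their sign under every alternative run except 1. Scaling by total counts alone, which shifts the median TGFβ change of all genes by -0.09, gave Rpph1 a TGFβ change of -0.064 (edgeR adjusted p = 0.460) and Rmrp one of -0.28 (adjusted p = 0.0402), so that 1 member was called. For the line, Rpph1 had 0.81 under DESeq2 and 0.81 with no filter on low counts, and 1 member was called in each; the cause was not tested. Leaving out mitochondrially encoded genes gave edgeR 4 line calls, with Rpph1 at an adjusted p of 0.108. With a threshold of 1.5-fold, the ratios counted were 1 under TGFβ in Vp16-TRF1ΔN, 2 between the lines at 0 h and 3 at 24 h, beside 0 for each at 2-fold. Of the partner genes 12 fell and 7 rose under DESeq2, against 22 and 10 under edgeR.

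Of 25 ratios and differences, 25 stayed within their counting interval under DESeq2 size factors, 21 under total counts and 21 without mitochondrially encoded genes, with shifts of at most 0.09 on the log2 scale. Prior counts of 0.5 and 5 kept all 25 within it. Set against the median of other small RNAs, 18 left it, and 4 changed sign: the TRF1ΔN TGFβ ratios of Rny1 (-0.12) and Rpph1 (-0.27) and the differences of responses of Rpph1 (0.51) and Rmrp (0.36). No paired analysis was possible because each group held 1 library and the labels give no replicate numbers; the additive fit compares the times within each line through its line term. Leaving out a library leaves no residual degree of freedom. Depth limits Terc, and the number of libraries limits all members.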
